A study of Drosophila melanogaster with 3 samples.

Results

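Deep intronic summits are the peaks of fru-GFP binding that lie inside an annotated gene, outside every exon, and more than 10 kb from the nearest transcription start site (TSS) of any gene. They were found by position alone, by setting the summit of each peak of the authors' thresholded list against the gene annotation. Of 8996 thresholded summits, 583 met the rule, or 6.48% (95% Wilson interval 5.99% to 7.01%). Binding was measured by chromatin immunoprecipitation and sequencing (ChIP-seq), in which chromatin bound by a protein is pulled down with an antibody and the recovered DNA is sequenced. The animals were wandering larvae of the 3rd instar from the strain fru-MiMIC-GFP, in which an added eGFP exon in an intron of the gene makes a fru-GFP fusion from the endogenous locus, and the antibody was directed against GFP. There was 1 group of 3 biological replicates of whole larvae with the sexes pooled, so that no condition is set against another, every cell type of the animal is mixed, and a single insertion strain stands for the gene. The labels list a possible control experiment, whose own files were not used here. The files used hold regions and scores and no reads, so the depth behind a peak is unknown.

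The gene fruitless (fru) encodes transcription factors with a BTB domain, through which such proteins pair, and zinc fingers, which contact DNA. It is known for its male-specific products, which shape the neurons of courtship, while other products of the gene are made in both sexes. Long introns of Drosophila genes are known to hold enhancers, stretches of DNA that factors bind to adjust transcription of a promoter that may lie far away in the sequence. A summit deep inside an intron is therefore a position whose regulated gene cannot be read from proximity to a TSS, and the host gene named below is only the gene whose span holds the summit.

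The 101 bases centred on each of 8 strong deep intronic summits are shown first, because their base composition is the feature that recurs across the set. They are the 8 of highest signal value outside 1 chromosome arm whose sequences are not shown, read from the dm6 genome on its plus strand, with runs of 6 or more A or T in capitals. All 8 lie in introns, and none of their bases is exonic. The windows are chr2L:21009481-21009581 in CG42238, a gene known by its number, and chr3R:6424057-6424157 in gpp, which encodes the histone H3 methyltransferase grappa. They continue with chr3L:20600803-20600903 in knrl, a nuclear-receptor family transcription factor, and chrX:3053404-3053504 in kirre, an immunoglobulin-domain adhesion protein of myoblast fusion. The others are chr3L:14304019-14304119 in fz, the Frizzled receptor, and chrX:3162466-3162566 in N, the Notch receptor. The last are chrX:12510834-12510934 in mdu and chr3L:10678784-10678884 in simj, a subunit of the nucleosome remodelling and deacetylase complex NuRD.
CG42238: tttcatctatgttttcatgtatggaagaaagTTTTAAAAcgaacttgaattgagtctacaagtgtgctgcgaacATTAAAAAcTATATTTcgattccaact
gpp: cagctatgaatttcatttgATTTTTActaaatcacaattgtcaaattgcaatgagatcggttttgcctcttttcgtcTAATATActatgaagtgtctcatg
knrl: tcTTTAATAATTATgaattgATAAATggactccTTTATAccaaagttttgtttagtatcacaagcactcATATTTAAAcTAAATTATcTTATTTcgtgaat
kirre: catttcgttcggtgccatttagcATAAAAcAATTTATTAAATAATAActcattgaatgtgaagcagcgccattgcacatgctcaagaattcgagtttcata
fz: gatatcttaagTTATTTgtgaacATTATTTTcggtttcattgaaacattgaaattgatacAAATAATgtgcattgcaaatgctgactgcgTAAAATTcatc
N (Notch): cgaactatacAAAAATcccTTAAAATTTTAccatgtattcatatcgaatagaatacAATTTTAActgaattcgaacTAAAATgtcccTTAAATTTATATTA
mdu: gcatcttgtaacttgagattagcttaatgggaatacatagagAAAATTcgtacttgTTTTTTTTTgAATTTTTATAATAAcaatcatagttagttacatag
simj: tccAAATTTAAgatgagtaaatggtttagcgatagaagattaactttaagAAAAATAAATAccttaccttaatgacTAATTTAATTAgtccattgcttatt
The share of G and C in these windows ran from 23.8% in knrl and N to 34.7% in kirre. Flanking windows of the same length centred 500 bp to either side averaged 52.0% at CG42238, 46.0% at N and 45.5% at gpp. At kirre the summit window held 34.7% and the flanks 31.2%, and at fz the summit window held 28.7% and the flanks 19.3%, so that these 2 of the 8 were not poorer in G and C than their flanks. The longest unbroken run of A and T was 17 bases at kirre and 14 bases at N and mdu.

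The strongest deep intronic summit was that of CG42238, with a signal value, the peak caller's own score, of 1729. It stood at place 94 of the pooled thresholded list, and at places 153, 117 and 72 in the lists of replicates 1, 2 and 3. It lay 25244 bp from the nearest TSS, which belongs to a small nucleolar RNA inside the same span. The next was in gpp, with a signal value of 1702 and place 100, and with places 114, 94 and 115 in the replicates. It lay 14529 bp from a TSS, in an intron of 28950 bp. These were the only 2 deep intronic summits among the strongest 100 of the thresholded list, and 36 stood among the strongest 1000.

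The other summits shown stood high in each replicate as well. The pooled list was called on the reads of these same replicates, so a high place in each is not a separate measure of reproducibility. The knrl summit stood at place 225 of the pooled list and at 351, 193 and 203 in the replicates. The fz summit stood at 343 in the pooled list and at 360, 333 and 411. The Notch summit, 10624 bp from a TSS and in an intron of 4245 bp, stood at 406 and at 412, 400 and 397. The 20 strongest deep intronic summits were each found among the strongest 8996 regions of all 3 replicates. This does not set them apart from other strong summits. Of the 1721 summits of other classes in the strongest bin of signal value, described below, 96.6% were present in all 3 as well. The stronger of the summits in kirre stood at place 329 of the pooled list and at 279, 353 and 362 in the replicates, and that in mdu at 462, with 483, 460 and 528. The simj summit stood at place 507, with 469, 462 and 615 in the replicates. The order of neighbours in the pooled list was not the order in every replicate.

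Further strong members lay in arr, which encodes the Arrow co-receptor of Wnt signalling, and in Prosap, a scaffold protein of the synapse. The arr summit stood at place 210 of the pooled list and at 246, 228 and 202 in the replicates, and the Prosap summit at 227, with 274, 224 and 268. The gene sbb, which encodes the transcriptional corepressor Scribbler, held 3 of the 20 strongest, at places 234, 445 and 548. The strongest of these stood at 309, 283 and 176 in the replicates. The Zdhhc8 summit, in a gene of the palmitoyltransferase family, stood at 523, with 438, 511 and 613. The Snoo summit, in a gene for a Smad corepressor of the Sno family, stood at 536, with 365, 541 and 592. In Eip75B, an ecdysone-induced nuclear receptor, the summit stood at 584, with 453, 522 and 851. The remaining members of the 20 were another summit in kirre at place 596, a pair shared by CG12535 and lncRNA:CR44999 at 605 and 626, and 1 in ds, the protocadherin Dachsous, at 672. The ds summit lay 39559 bp from a TSS, the farthest of the 20, and stood at 877, 489 and 757 in the replicates.

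**Figure D1:**
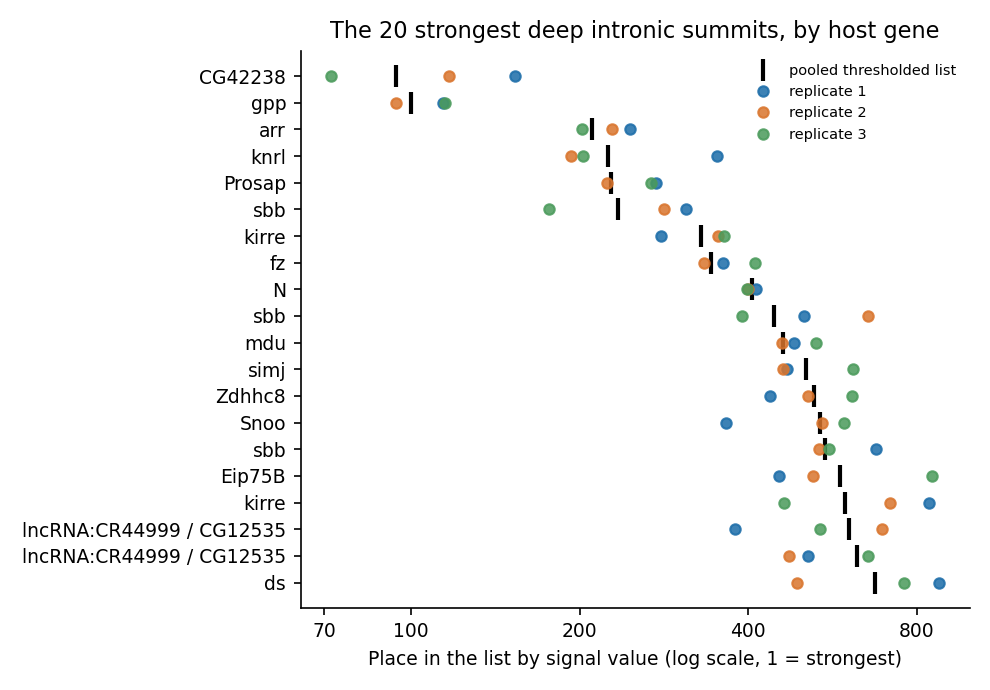
Places of the 20 strongest deep intronic summits in lists ordered by signal value (x axis, log scale, 1 is strongest), 1 row per summit with its host gene. Black ticks are the pooled thresholded list and coloured points replicates 1, 2 and 3; the CG42238 and gpp summits stand between places 72 and 153 in every list.

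Deep intronic summits made up 6.37%, 5.49% and 6.34% of the 8996 strongest regions of replicates 1, 2 and 3, a mean of 6.07% ± 0.498 (SD, n = 3), with 573, 494 and 570 regions. Replicate 2 had the lowest share. They were 8.70% of the 30000 candidate regions that the authors list for the pooled reads before thresholding, 2609 regions in all. Of these 2609 candidates 583 passed the threshold, or 22.3% (20.8% to 24.0%), against 30.0% of all candidates. The thresholded regions were the 8996 strongest of the pooled candidates by signal value. Passing, here and below, therefore restates that order and is not a separate measure of reproducibility. Candidates in introns 2 to 10 kb from a TSS passed in 25.8% of cases, intergenic ones in 22.6% and those within 500 bp of a TSS in 43.3%. The deep intronic share of passing was thus below that of all candidates and its interval included the share of intergenic ones. The rule's limit is not a natural edge. The intronic summit just outside it lay 9985 bp from a TSS with a signal value of 1560, and the one just inside lay 10018 bp away with a signal value of 119. The next ones were more alike, with signal values of 213, 205, 268 and 260 outside and 377, 201, 122 and 233 inside.

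Deep introns carried 31.9 thresholded summits per Mb, against 72.7 per Mb in introns 2 to 10 kb from a TSS. In replicates 1, 2 and 3 the deep introns carried 31.4, 27.1 and 31.2 summits per Mb, and the introns at 2 to 10 kb 71.8, 67.0 and 71.8. The groups did not overlap, and the difference was -40.3 ± 0.296 per Mb (SD, n = 3), with an exact two-sided sign-flip permutation p of 0.25, the smallest this test can give with 3 replicates. No test of this kind over 3 replicates can pass 0.05, and this holds for every such p below. Of the 18.3 Mb of deep intron sequence, 6.34 Mb lay in 100-kb bins without a single candidate region, a division chosen after the values were seen. It includes all the deep intron of Myo81F (1910 kb), Pzl (675 kb) and lovit (422 kb), the 3 protein-coding genes with most deep intron and no summit in it, and none of these had a deep intronic region among the strongest of any replicate. Leaving out these bins removes no thresholded summit, since each is itself a candidate region, so that it cannot lower a density of the thresholded list. Within bins that hold a candidate region, deep introns carried 48.9 summits per Mb, introns at 2 to 10 kb 74.2 and intergenic sequence 50.9. There the replicate difference between deep introns and introns at 2 to 10 kb was -25.9 ± 0.963 per Mb (exact sign-flip permutation p = 0.25, n = 3). Whether reads can be placed in the bins without candidates was not tested.

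The density fell with distance within the deep intronic range as well. In bins with a candidate region it was 57.7 summits per Mb at 10 to 15 kb from a TSS, 47.7 at 15 to 20 kb, 43.1 at 20 to 30 kb and 29.0 beyond 30 kb. Replicate 1 gave 57.5, 45.2, 43.1 and 27.7, replicate 2 gave 49.95, 38.4, 37.6 and 22.97, and replicate 3 gave 56.6, 45.2, 45.3 and 25.7. The order was the same in replicates 1 and 2, and in replicate 3 the bin at 20 to 30 kb stood level with that at 15 to 20 kb. On all intron sequence the density beyond 30 kb was 6.30 per Mb. The median deep intronic summit lay 14634 bp from a TSS, with quartiles of 11907 and 19879 bp, and the farthest lay 51793 bp away.

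**Figure D2:**
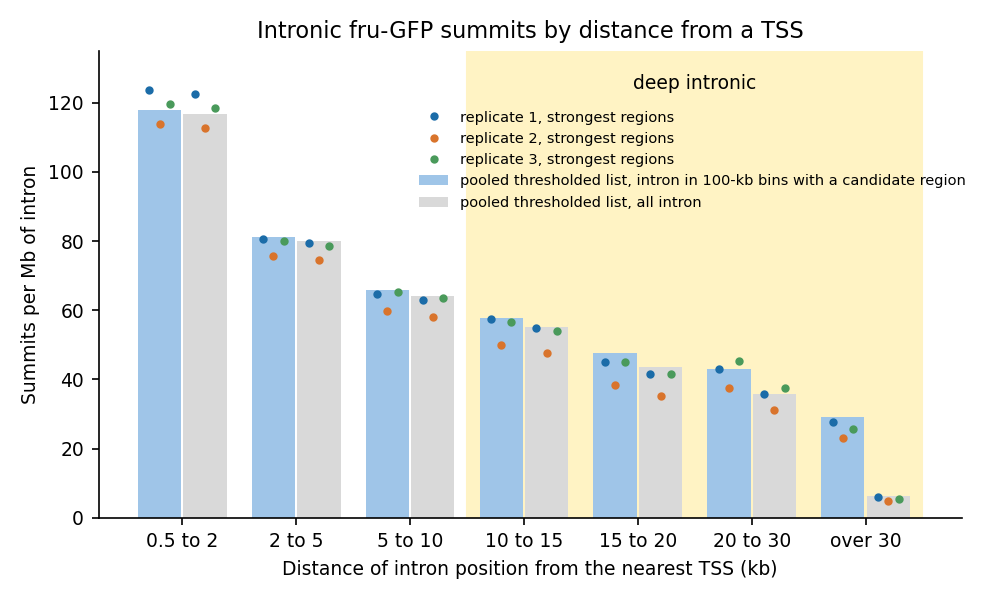
Thresholded intronic summits per Mb of intron sequence (y axis) in bins of distance from the nearest TSS (x axis, kb), as bars for sequence in 100-kb bins with a candidate region and for all intron sequence; points are the 3 replicates and shading marks the deep intronic range. The bars for bins with a candidate region step down from 57.7 to 29.0 per Mb within the shaded range.

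On the X chromosome and the 4 large arms of the autosomes, the deep intronic density on all sequence ranged from 50.8 per Mb on 2L and 45.1 on X to 27.8 on 2R and 25.1 on 3R. The replicates averaged 48.9 ± 3.804 on 2L, 40.1 ± 4.81 on X, 29.5 ± 1.83 on 3L, 26.7 ± 1.78 on 2R and 24.0 ± 2.07 on 3R (SD, n = 3 each). In bins with a candidate region the range among these 5 narrowed to 46.6 on 3R, 47.2 on X, 49.4 on 2R, 51.9 on 3L and 53.3 on 2L. The division removes sequence but no summit, and how much of the narrowing follows from that was not tested. Chromosome 4, with 2 summits, stood lower at 18.6 per Mb on either measure, and Y held none.

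How often deep intronic summits were found in the replicates, relative to other summits, depended on how many replicate regions were used. With presence defined as a summit within 100 bp among the strongest 8996 regions of a replicate, 79.6%, 72.9% and 83.4% of them were present in replicates 1, 2 and 3, against 78.2%, 78.3% and 83.4% of all other thresholded summits. The difference was -1.33 ± 3.59 percentage points (SD, n = 3; exact sign-flip permutation p = 0.75), smaller than its spread, and it was carried by replicate 2. Against introns at 2 to 10 kb the difference was -0.859 ± 1.23 points (exact sign-flip permutation p = 0.5, n = 3). All 3 replicates held 323 of the 583 (55.4%, interval 51.3% to 59.4%), against 58.0% of all thresholded summits, and 12 were in none. In the whole replicate lists of 30000 regions, 94.2%, 95.2% and 96.6% of deep intronic summits were present, against 91.8%, 93.8% and 95.4% of all other summits, a difference of 1.66 points (exact sign-flip permutation p = 0.25, n = 3). With only the strongest 4498 regions of each replicate the difference was -8.71 points, with the same p, and against introns at 2 to 10 kb it was -4.07 points.

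Set beside other summits of like signal, deep intronic summits had higher presence shares in all but the weakest of 5 bins. The thresholded list was divided by signal value into 5 bins of equal size, and since presence itself requires a strong signal in each replicate, its rise with signal is built into the measures. Of the 79 deep intronic summits in the strongest bin 97.5% were present in all 3 replicates, and of the 139 in the weakest bin 2.88% were. Other summits of the same bins stood at 96.6% and 3.73%. In bins 2, 3 and 4 the deep intronic shares were 92.5%, 75.6% and 39.4%, against 85.6%, 70.3% and 32.4% of other summits. Deep intronic summits were spread unevenly over the list, with 13.6% of them in the strongest bin and 23.8% in the weakest. Their median signal value was 177, with quartiles of 134 and 276, against 201 over all thresholded summits and 219 at promoters. Spearman's correlation of signal values between pairs of replicates, a description across peaks that share both libraries, was 0.716, 0.660 and 0.658 over 528, 533 and 539 deep intronic summits, and 0.775, 0.749 and 0.719 over the other summits.

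The introns that hold these summits are long, as are those of deep intron sequence in general. Their median length, taking the shortest intron of any transcript around the summit, was 23961 bp, and the nearest exon lay a median 6386 bp away. Deep intron positions taken every 1000 bp had medians of 31056 bp and 6904 bp. Those in bins with a candidate region had medians of 19966 bp and 4295 bp. In 244 cases (41.9%, interval 37.9% to 45.9%) the summit lay in the 1st intron of at least 1 transcript, against 23.8% of deep intron positions taken every 1000 bp, and 29.4% of those in bins with a candidate region. Such positions share genes, so no test was made. The nearest TSS belonged to a host gene for 290 summits (49.7%, interval 45.7% to 53.8%), against 48.8% of positions in bins with a candidate region, so that for about as many summits the nearest TSS was that of another gene. A protein-coding gene was host in 566 cases, and 41 summits lay in the overlap of 2 genes.

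Deep intronic summits stood farther from other summits than those of any other class of location. The rule sets part of this in advance, since a summit over 10 kb from every TSS cannot lie close to a promoter summit. The nearest other thresholded summit was a median 2482 bp away, against 1748 bp for introns at 2 to 10 kb and 1916 bp for promoters. Another summit lay within 2 kb of 258 (44.3%), against 54.3% in introns at 2 to 10 kb and 51.1% at promoters. More than 10 kb from any other thresholded summit stood 95 (16.3%), against 7.24% in introns at 2 to 10 kb and 13.2% at promoters. Some lay close together all the same. Chains of 3 or more deep intronic summits with gaps of at most 2 kb numbered 30 and held 108 summits. The longest chains had 5 summits: 1 in B4, 2 in sbb and 1 in SKIP. In B4 they spanned 3535 bp (chr2L:13511382-13514916), and in SKIP 4138 bp (chr3R:22193714-22197851). The tightest of those with 4 was in Snoo, with 4 summits in 1043 bp (chr2L:7925546-7926588).

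The 583 summits lay in 240 host genes, 228 of them protein-coding. Among the 795 protein-coding genes with any deep intron sequence, 28.7% held a summit, and 100 hosts of any kind held 1 each. At the other extreme 34 genes held 5 or more, and 235 summits (40.3%) lay in them. Tet, the methylcytosine dioxygenase family gene, held 19 in 53.6 kb of deep intron, and the strongest regions of replicates 1, 2 and 3 gave 18 in each. The adhesion gene kirre held 15 in 152.7 kb, with 16, 15 and 15 in the replicates. The corepressor gene sbb held 12 in 25.5 kb, with 12 in each replicate, the highest density per kb of deep intron among the 12 genes with most summits. Snoo held 12 in 66.4 kb, with 10, 11 and 13 in the replicates. Counts of a gene thus varied by at most 3 between replicates for these 4 genes.

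SKIP, a Shal potassium-channel interacting protein gene, held 10, with 9, 7 and 10 in the replicates. The Dachsous gene ds held 9, with 8, 9 and 10, and hth, the homeodomain factor Homothorax, held 9, with 10, 8 and 9. The non-coding genes lncRNA:CR44999 and lncRNA:CR44833 held 8 each, those of lncRNA:CR44999 being also inside CG12535 on the other strand. The Frizzled gene fz held 7, with 7, 6 and 10 in the replicates, and jing, a zinc-finger gene, held 7, with 6, 9 and 6. Further genes held 7 as well, and fz and jing are named because their strongest summits stood higher. Of the 19 in Tet 11 were present in all 3 replicates, against 12 of the 15 in kirre, 8 of the 9 in ds and 4 of the 10 in SKIP.

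**Figure D3:**
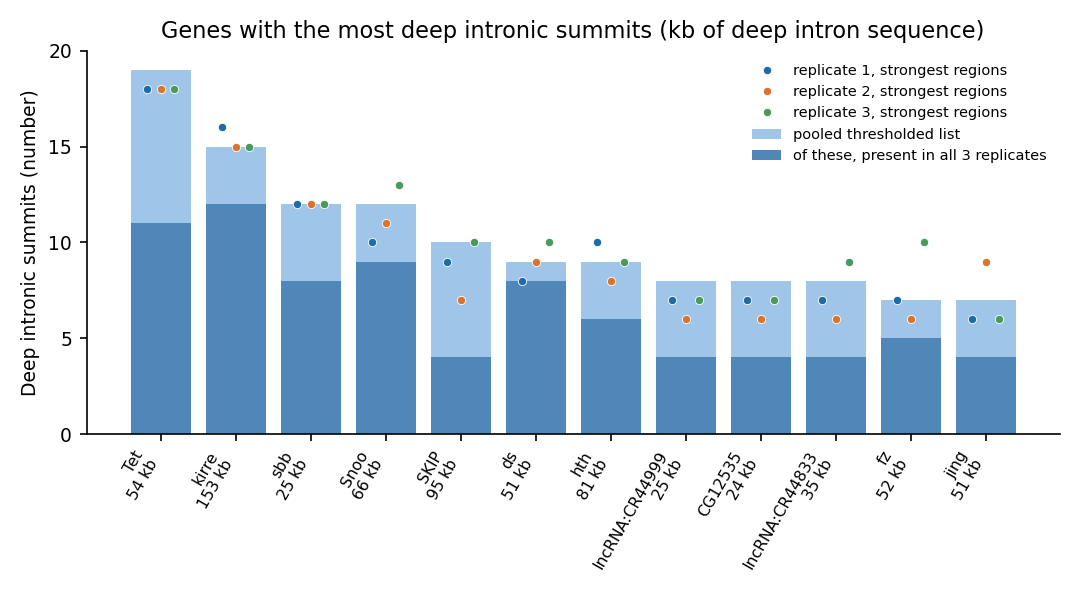
Deep intronic summits (y axis) in the 12 genes with the most of them, with the kb of deep intron sequence of each gene below its name. Ties were ordered by the strongest summit, and further genes with 7 summits are not drawn. Light bars are the thresholded list, dark bars those present in all 3 replicates, and points the counts among the strongest 8996 regions of each replicate; Tet has 19 and kirre 15.

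The share of genes holding a deep intronic summit differed widely between gene lists. In each list only genes with deep intron sequence are counted, and the share over all 795 such protein-coding genes was 28.7%. That share rose with the length of deep intron, from 9.85% of genes with up to 5 kb to 49.3% of those with over 50 kb. It was 34.2% at 5 to 20 kb and 41.9% at 20 to 50 kb, and the lists were not matched for length. The lists had been chosen with results of these data known, so no test was made. Genes of the ecdysone cascade, the steroid hormone response that drives moulting and metamorphosis, held a summit in 11 of 12 cases (91.7%, interval 64.6% to 98.5%), with a median deep intron of 19.0 kb per gene. In the strongest regions of replicates 1, 2 and 3 the hosts were 8, 11 and 10 of these 12. Genes for BTB-domain proteins, to which fru itself belongs, followed with 7 of 10, and 7 in each replicate. Transcription factors of patterning and cell identity had 18 of 29 (62.1%), with 18, 14 and 17 in the replicates. This list is not separate from the BTB list, since bab1, br and fru, among other hosts, are on both. Growth factor and Notch signalling genes had 11 of 21 (52.4%), with 11, 9 and 12 in the replicates. Among summits over 20 kb from a TSS the shares were lower in these lists, with 4 of 6 for the ecdysone list, 2 of 5 for the BTB list, 7 of 14 for the patterning list and 1 of 4 for the growth factor and Notch list.

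In the ecdysone list tai, a coactivator of the ecdysone receptor, held 6 summits, with 6, 6 and 7 in the replicates, and its strongest stood at place 1327. Eip74EF, an ETS-domain factor induced by ecdysone, held 4, with 4, 3 and 2. Eip75B held 3 in only 6.21 kb of deep intron, with 2, 3 and 3 in the replicates. Hr4, a nuclear receptor, held 2, with 3, 2 and 1. The receptor gene EcR itself held 1, at place 4125, with 1, 2 and 1 in the replicates, and ftz-f1, a nuclear receptor of the prepupal response, held 1 at place 8620, with 0, 1 and 1.

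Among the BTB-domain genes psq, which encodes Pipsqueak, held 5, with 3, 4 and 6 in the replicates, and bab1, a bric-à-brac gene of limb and abdomen patterning, held 5, with 5, 5 and 6. The gene mamo held 4, with 3, 2 and 3. The broad gene br, which is on the ecdysone list too, held 2, with 2, 1 and 2. Of the patterning factors inv, the homeodomain factor Invected, held 4, with 5, 2 and 5, beside the hth, jing and bab1 counts above. Among growth factor and Notch genes arr held 3, with 5, 3 and 3, N held 3, with 2, 4 and 4, and Delta, which encodes a ligand of Notch, held 3 in 8.15 kb of deep intron, with 2, 3 and 2.

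Axon guidance and neuronal adhesion genes held a summit in 17 of 39 cases (43.6%), with 17, 14 and 15 in the replicates. The median deep intron of these genes was 21.4 kb, and they held 35.7 summits per Mb of it, against 32.0 over all genes. In bins with a candidate region the order was turned round, with 37.0 per Mb in this list against 48.6 over all genes. Outside kirre their counts were low: Ptp10D, a receptor tyrosine phosphatase, held 4, with 1, 2 and 5 in the replicates, and robo2, a Slit receptor, held 3, with 2 in each. The leucine-rich repeat gene caps held 3, with 3, 1 and 2. RNA-binding protein genes had 4 of 15 (26.7%), near the share of all genes, with pum and heph holding 4 each and msi and Rbp6 1 each. The median deep intron of this list, 26.9 kb, was however longer than the 9.67 kb over all genes. Per Mb of deep intron the list held 14.2 summits, against 32.0 over all genes. In bins with a candidate region the values were 14.2 and 48.6. In pum, the Pumilio translational repressor, the replicates gave 2, 2 and 4, and in heph, a polypyrimidine-tract binding protein, 4, 5 and 4.

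Ion channel and neurotransmitter receptor genes stood at the other end, with 1 of 26 (3.85%, interval 0.682% to 18.9%). Their median deep intron was 18.9 kb per gene, almost that of the ecdysone list. The 1 host was nAChRalpha6, a nicotinic acetylcholine receptor subunit, with 2 summits, of which the stronger stood at place 2976, and with 2, 1 and 2 in the replicates. In the replicates 2, 1 and 1 of the 26 genes were hosts. The deep introns of these 26 genes also had few candidate regions, 52.7 per Mb in bins with a candidate region, against 220 per Mb over all protein-coding genes, and 2 of their 31 candidates passed the threshold (6.45%, interval 1.79% to 20.7%), against 22.1%. For the ecdysone list these values were 457 candidates per Mb and 25 of 100 passing (interval 17.5% to 34.3%). Axon guidance genes had 183 candidates per Mb and passed in 20.2% of cases. In proportion to the values over all genes, the lists thus differed more in the number of candidates per Mb than in the share that passed. The RNA-binding list was the exception, with 146 candidates per Mb, of which 9.71% of 103 passed. The ion channel list was low in both. Whether genes without a summit are less active in whole larvae, or active in fewer cells, was not tested, and in whole animals fewer cells with a bound site and weaker binding per cell cannot be told apart.

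**Figure D4:**
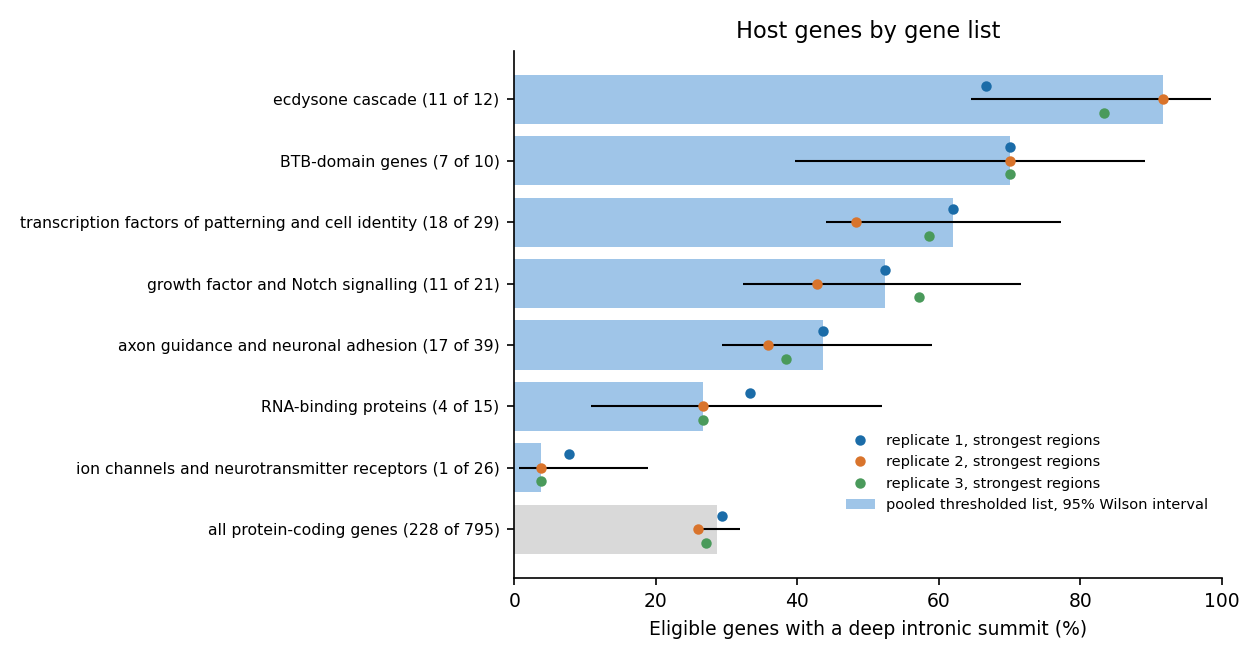
Percent of genes with deep intron sequence that hold a deep intronic summit (x axis), by gene list, with 95% Wilson intervals; points are the 3 replicates and the grey bar is all 795 protein-coding genes with such sequence. The ecdysone list stands at 91.7% and the ion channel list at 3.85%, against 28.7% over all genes.

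The fru gene (FBgn0004652, chr3R:18414273-18545586) held 1 deep intronic summit in 35.9 kb of deep intron, of 16 thresholded summits within the gene. It lay 11009 bp from a TSS of fru itself, in the region chr3R:18469437-18469896 and in the 1st intron of a transcript. Its signal value was 154, at place 6079 of the pooled list, and it stood at 8071, 5982 and 6500 in the replicates. The strongest regions of replicates 1, 2 and 3 held 2, 1 and 2 deep intronic regions in fru.

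The sequence under deep intronic summits was poor in G and C. The 101 bases centred on the summit averaged 34.0% G and C, against 42.7% in windows 500 bp to either side, and 461 of the 583 summits (79.1%) were below their own flanks. In the strongest regions of replicates 1, 2 and 3 the difference was -8.60, -6.21 and -9.39 percentage points, a mean of -8.07 ± 1.66 (SD, n = 3; exact sign-flip permutation p = 0.25). The replicate lists share many regions and the sequence is that of the genome. Agreement and SD between replicates, here and for all sequence measures below, therefore reflect which regions each list holds. They do not measure the spread between sites, where the SD of the summit window was 8.76 points over the 583 summits. The same difference was -6.71 ± 1.77 points in introns at 2 to 10 kb and -6.15 ± 2.07 points at promoters. Taken within each replicate, that of deep introns was lower than that of introns at 2 to 10 kb by 1.34, 1.48 and 1.27 points, a contrast of -1.36 ± 0.108 points (exact sign-flip permutation p = 0.25, n = 3). Against promoters the contrast was -1.91 ± 0.412 points, with the same p. Deep intron sequence taken every 1000 bp averaged 40.0%. The 291 stronger deep intronic summits averaged 32.4% and the 292 weaker ones 35.7%, with flanks of 42.6% and 42.8%.

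The composition around the summit had a narrow trough between raised shoulders. In 51-bp windows, G and C averaged 33.3% at the summit, 45.0% between 150 and 350 bp away and 41.3% beyond 1000 bp. The replicates averaged 33.7% ± 1.13 at the summit, 45.0% ± 0.177 on the shoulders and 41.3% ± 0.0150 beyond 1000 bp (SD, n = 3 each). The mean of the shoulders was above the distant level in each replicate list, and these SDs are between lists that share many regions. Introns at 2 to 10 kb had 34.4%, 44.2% and 41.5% at these places. Promoters had 37.5% at the summit, 42.6% at the shoulders and 43.7% farther out, with no shoulder above the distant level. The authors' peak caller places the summit within a region, and its part in the width of the trough was not tested.

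**Figure D5:**
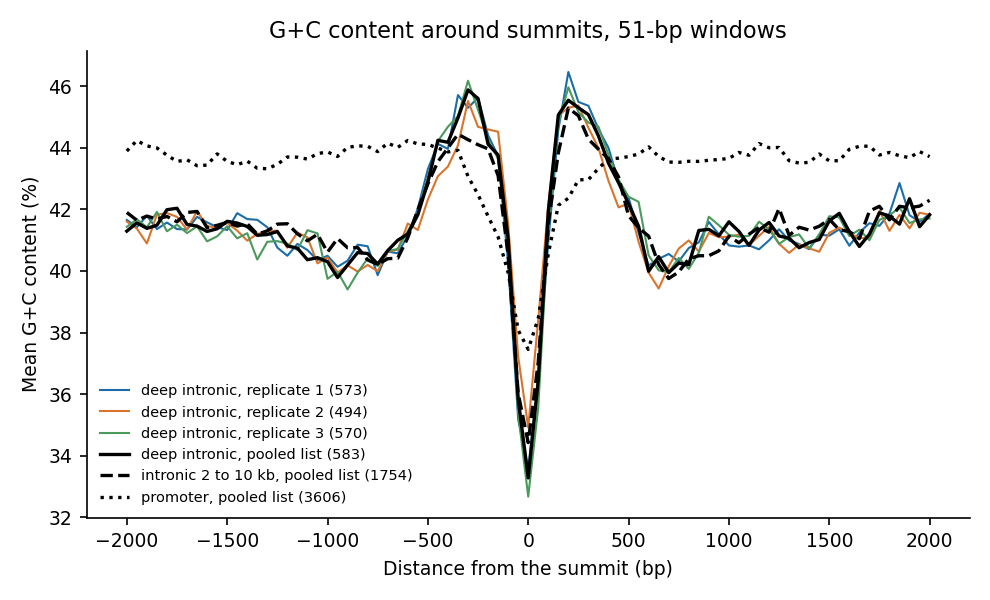
Mean G and C content (y axis, %) in 51-bp windows by distance from the summit (x axis, bp) for deep intronic summits of the 3 replicates and the pooled thresholded list, and for pooled summits in introns at 2 to 10 kb and at promoters; numbers of summits are in the legend. The pooled deep intronic line dips to 33.3% at the summit, peaks near 45.9% on the shoulders and levels off near 41.3%. The lines of replicates 1, 2 and 3 dip to 33.6%, 34.9% and 32.7%.

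Runs of A and T were longer under the summits. The median longest run was 10 bases in the summit window and 8 bases in a flank window, and 53.2% of summit windows held a run of at least 10, against 32.8% of flank windows. Replicates 1, 2 and 3 gave 50.3%, 47.8% and 54.6% at summits and 31.4%, 32.8% and 33.8% in flanks. The groups did not overlap, though the 3 lists share many regions. In introns at 2 to 10 kb the shares were nearly the same, 50.8% at summits and 29.1% in flanks, and at promoters they were 46.2% and 27.4%. Bases soft-masked as repeats in the genome made up 22.6% of summit windows and 19.4% of flanks, a replicate difference of 3.41 ± 1.36 points (exact sign-flip permutation p = 0.25, n = 3), against 28.6% of deep intron sequence as a whole. The same difference was 2.93 ± 1.22 points in introns at 2 to 10 kb and 5.07 ± 2.13 points at promoters.

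Of 18 short words known for named factors, counted on both strands within 50 bp of the summit, 2 were more frequent at the summit than in the flanks in all 3 replicates and 8 less frequent. None of the 18 words is contained in another. These shares move with base composition: over all 6-letter words the median difference between summit and flank was 4.20 points for the 192 words with 1 G or C, -0.686 for the 640 with 3 and -1.29 for the 492 with 4, counted with their reverse complements. The forkhead word TGTTTA stood in 86 summit windows (14.8%, interval 12.1% to 17.9%) and 10.1% of flanks, against 13.1% of all thresholded summits and 9.50% of deep intron sequence. Its difference was 3.40, 4.45 and 5.88 points in replicates 1, 2 and 3, a mean of 4.58 ± 1.24 (SD, n = 3; exact sign-flip permutation p = 0.25, adjusted over the 18 words 0.45). The GATA-factor word AGATAA stood in 6.86% of summit windows and 5.57% of flanks, with differences of 2.71, 2.63 and 1.84 points. It stood in 7.57% of all thresholded summits and 6.09% of deep intron sequence. Both words have 1 G or C, so that TGTTTA, with 4.63 points in the thresholded list, stood near the median of its composition and AGATAA, with 1.29 points, below it. In introns at 2 to 10 kb TGTTTA stood in 14.5% of summit windows and 9.64% of flanks, and the difference was higher in deep introns by 0.0896 ± 2.03 points, less than its spread.

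The word that differed most in the other direction was CACACA, a CA repeat, in 5.49% of summit windows and 11.4% of flanks, with differences of -4.80, -2.73 and -7.02 points. It stood in 7.56% of all thresholded summits and 8.69% of deep intron sequence. The ETS word CGGAAG stood in 4 summit windows (0.686%) and 2.49% of flanks, with differences of -1.22, -1.72 and -1.93 points, and in 1.59% of all thresholded summits and 2.56% of deep intron sequence. GAGAG, bound by GAGA factor, stood in 11.7% of summit windows and 13.1% of flanks, against 12.6% of all thresholded summits and 11.99% of deep intron sequence. The nuclear receptor word AGGTCA stood in 18 summit windows (3.09%) and 2.40% of flanks, with differences of 0.785, 1.11 and -0.351 points. It stood in 1.85% of all thresholded summits and 2.89% of deep intron sequence, so that in the set that includes the ecdysone genes it did not differ from its flanks beyond the spread.

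The word of the promoter factor DREF, TATCGATA, stood in 1 of the 583 deep intronic windows (0.172%) and 0.172% of flanks, against 2.69% of promoter summits, 1.21% of all thresholded summits and 0.214% of deep intron sequence. The difference between summit and flank was lower in deep introns than at promoters by 2.52 ± 0.757 points over the replicates (exact sign-flip permutation p = 0.25, n = 3). The Zelda word CAGGTAG and the Grainy head word AACCGGTT likewise stood in 1 deep intronic window each, and the CREB word TGACGTCA in 0 of 583, which allows a share of up to 0.515%. CAGGTAG stood in 0.422% of all thresholded summits and 0.449% of deep intron sequence, AACCGGTT in 0.245% and 0.0547%, and TGACGTCA in 0.133% and 0.0712%. The remaining words were TGANTCA for AP-1, the palindromic E-box spelled CACGTG, a second palindromic E-box spelled CAGCTG, a further E-box spelled CATCTG, the homeodomain word TAATTA, the Scalloped word GGAATG, the Suppressor of Hairless word TGGGAA and the Sox word ACAATGG. They had mean differences over the replicates between -0.962 and 2.01 points, where TAATTA had the 2.01 and differed in sign between replicates. Their shares of all thresholded summits and of deep intron sequence lay between 0.789% and 8.39% and between 1.00% and 7.19%.

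Among all 2080 possible 6-letter words, counted with their reverse complements, the 10 with the largest excess at deep intronic summits over the flanks were made of A and T only. AAATAT stood in 30.5% of summit windows and 14.8% of flanks, with differences of 15.3, 12.2 and 17.98 points in the replicates, and in 28.6% of all thresholded summits and 18.6% of deep intron sequence. TTTAAA stood in 20.4% of summit windows and 8.15% of flanks, with differences of 12.5, 10.1 and 13.6 points, and in 17.5% and 10.7% of the same sets. To see past composition, a further ranking, chosen after these values were seen, took from each word's difference the median difference of all words with the same number of G or C. Among words with at least 3 G or C, the leading word in the thresholded list was ATACCC, followed by AGTGCA and then by CAGTGC, whose letters overlap those of the 2nd. By the mean over the replicates the order was turned round, with an excess of 6.498 points for CAGTGC, then 5.45 for AGTGCA and 4.76 for ATACCC.

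The leading word ATACCC stood in 6.00% of deep intronic summit windows and 2.06% of flanks, against 4.85% of all thresholded summits and 3.24% of deep intron sequence. Its excess over words of equal composition was 4.97, 4.55 and 4.74 points in replicates 1, 2 and 3, with 3.14 in introns at 2 to 10 kb and 1.98 at promoters of the thresholded list. CAGTGC stood in 6.35% of windows and 3.34% of flanks, against 6.15% of all thresholded summits and 3.90% of deep intron sequence, with an excess of 7.68, 7.69 and 4.12 points in the replicates. In the thresholded list its excess was 4.29 points in deep introns, 2.91 in introns at 2 to 10 kb and 1.79 at promoters. Its share of promoter summits, 6.41%, was about that of deep intronic ones. AGTGCA stood in 9.43% of windows and 5.57% of flanks, against 7.91% of all thresholded summits and 5.61% of deep intron sequence, with an excess of 6.54, 5.67 and 4.12 points in the replicates. In the thresholded list its excess was 4.55 points in deep introns, 1.82 in introns at 2 to 10 kb and 0.388 at promoters. ACACTG, the next in the thresholded list, had an excess of 3.23, 4.05 and 3.42 points in the replicates. In the thresholded list its excess was 3.60 points in deep introns, 2.59 in introns at 2 to 10 kb and 6.20 at promoters, so that it was highest at promoters. It stood in 5.66% of windows and 2.74% of flanks, and in 7.13% of all thresholded summits and 3.91% of deep intron sequence. A word match describes the letters under the summits and is not evidence of a site of Fru or of any other factor.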

How the data were processed

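The labels give 1 group of 3 biological replicates. The authors deposited, per the sample notes with the lists, regions called on each replicate and on the pooled reads together with a control alignment (30000 each), and 8996 regions thresholded by irreproducible discovery rate on build dm6. For the caller, its settings and the cutoff the sources used here give nothing. Their signal value is a score of the deposited lists on a scale of its own in each list. It was used only to order regions within a list.

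Positions are 1-based. Genes, exons and TSSs came from the Ensembl annotation BDGP6 version 6.54, release 115, without pseudogenes and transposable elements, and sequence from the RefSeq copy of the same assembly, in which 99.8% of annotated start codons read ATG. From each replicate list the strongest 8996 regions were kept, and presence meant summits within 100 bp. Paired differences over replicates were tested by an exact two-sided sign-flip permutation test, and words were adjusted by the Benjamini-Hochberg method. Intervals are 95% Wilson intervals and cover counting only, and the limit for a word seen in 0 windows uses 3 counts. Eligible genes are protein-coding genes with intron sequence over 10 kb from any TSS.

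Genes named are hosts of the 20 strongest summits, the 12 with most summits (ties by the strongest summit), up to 4 per list by number of summits, and fru. EcR, ftz-f1, B4, Myo81F, Pzl and lovit were added after their values were seen. Members, lists and words were chosen with earlier results of these data known. All listed symbols matched a gene, 5 of them by their current symbol only after the values were seen, of which Delta added a host. One of the gene lists is not reported here. Alternatives changed the distance from the TSS, the genes used for TSSs, the list length, the presence rule, the windows and the replicates. Python 3.11.15 with numpy 2.4.6, pandas 2.3.3, scipy 1.17.1 and matplotlib 3.10.9 was used, and the scripts were tested on simulated data.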

Additional observations from a re-analysis of the deposited data

How the results depend on the processing

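With 1 group, no replicate block between groups could be fitted. The deep intronic share of thresholded summits, 6.48%, was 14.4% with a limit of 5 kb, 1.601% with a limit of 20 kb, 7.75% with protein-coding genes only and 5.40% in the strongest 4498 of the list; leaving out a replicate gave 6.09% to 6.57%. The presence difference from all other summits, -1.33 points, was 1.66 in whole replicate lists and 0.483 in the strongest 4498 of the list, and leaving out a replicate gave -2.70 to 0.701, positive without replicate 2. With 4498 replicate regions it was -8.71. The difference from introns at 2 to 10 kb, -0.859, was 0.823 in whole lists and -4.07 with 4498 replicate regions. The density difference, -40.3 per Mb, kept its sign and was -56.1 for summits over 20 kb, -19.7 with 4498 regions per replicate, -25.9 in bins with a candidate region and -38.0 on bases that are not soft-masked, the last 2 chosen after seeing the data. Candidates over 20 kb passed in 19.3% of cases. For summits over 20 kb the share of host genes was 28.6% in the axon guidance list, 0 in the ion channel list, 25% in the growth factor and Notch list, 40% in the BTB list, 66.7% in the ecdysone list and 24.1% over all genes. For summits present in all 3 replicates it was 25.6% in the axon guidance list, 34.5% in the patterning list and 21.1% over all genes. The G and C difference, -8.07 points, stayed between -9.00 and -5.88 under all alternatives. Of 126 word alternatives 10 changed sign: GAGAG 0.621 with flanks at 1000 bp, CAGGTAG 0.117 with windows of 100 bp, TGANTCA -0.0808 and AGGTCA -0.0812 among the stronger deep intronic regions of each replicate, AGGTCA -0.263 with windows of 25 bp, CATCTG 0.0958 with flanks at 1000 bp and 0.422 without replicate 3 (-1.02 to 0.422 leaving out each), and AACCGGTT 0.00465 with windows of 25 bp, 0.0967 with flanks at 1000 bp and 0.0945 without replicate 1 (-0.0870 to 0.0945 leaving out each). The causes were not tested. The lists hold no read counts, so depth could not be weighed, and the sign-flip test used cannot give a p below 0.25 with 3 replicates.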
